A study of Mus musculus with 2 samples.

Results

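The 35 genes described here make proteins of the endoplasmic reticulum (ER) that fold, inspect and export secreted and membrane proteins, together with the sensors and transcription factors of the ER stress response. They are grouped in 8 roles and were listed by function, by a rule that reads no level. The choice was made with earlier results of these data known. All 35 were found by symbol among the 43346 Ensembl genes of the tables. Total RNA was sequenced from embryonic facial prominence, from which face and jaws develop, of B6NCrl mouse embryos at embryonic day 15.5. The labels give 1 group of 2 healthy biological replicates, made from 78 pooled embryos (replicate 1) and 62 (replicate 2) of both sexes, and name no treatment or mutant allele. The libraries therefore describe how strongly each gene was expressed and how far the replicates differed, and no comparison between conditions could be made.

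Proteins bound for secretion enter the ER through the Sec61 channel, are folded there by chaperones and disulfide isomerases, and leave in vesicles coated with COPII proteins. Proteins that fail to fold are sent back to the cytosol and degraded. When unfolded proteins accumulate, the sensors IRE1 (gene Ern1), PERK (Eif2ak3) and ATF6 (Atf6) start the unfolded protein response, in which ATF6 and the spliced form of XBP1 switch on chaperone genes, many of them through a promoter motif called the ER stress element. Cells that make bone and cartilage secrete large amounts of collagen and depend on this machinery.

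The ER stress element is a CCAAT box and a CCACG box with 9 bases between them, written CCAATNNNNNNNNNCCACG, and it was searched on both strands of RefSeq promoter windows of build GRCm38.p6. Each window ran from 250 bases before to 50 bases after the gene's start. Of the 30 members with a window, 8 held at least 1 exact match, or 26.7%, against 39 of all 32851 windows, or 0.119%. The members were listed by function and include well-known targets of the stress response, so this share is not independent of their choice. The matches are shown because they are the sequence feature that several members share. Each is printed 5′ to 3′ in the orientation of the element, which is in capitals, with 6 bases of flank in lower case. The Hspa5, Dnajc3, Pdia6, Canx and Syvn1 sites and the more distant Hsp90b1 site read along the gene's strand, and the others read along the opposite strand.
Hspa5, chr2:34772019-34772049: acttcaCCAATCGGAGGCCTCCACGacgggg
Hsp90b1, chr10:86705632-86705662: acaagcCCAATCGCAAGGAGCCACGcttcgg
Hsp90b1, chr10:86705527-86705557: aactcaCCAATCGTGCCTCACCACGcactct
Dnajc3, chr14:118937821-118937851: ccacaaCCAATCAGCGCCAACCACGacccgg
Creld2, chr15:88819514-88819544: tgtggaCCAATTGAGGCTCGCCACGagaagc
Pdia6, chr12:17266485-17266515: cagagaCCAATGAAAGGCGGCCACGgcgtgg
Calr, chr8:84847069-84847099: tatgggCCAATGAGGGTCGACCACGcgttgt
Canx, chr11:50325794-50325824: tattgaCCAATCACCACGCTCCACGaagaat
Syvn1, chr19:6046526-6046556: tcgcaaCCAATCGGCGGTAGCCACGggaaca

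The 250 bases upstream of the start of Hspa5, which encodes the chaperone BiP, are printed because this promoter is the textbook example of the element. They lie at chr2:34771840-34772089 on the forward strand, and the exact match is in capitals.
Hspa5 upstream: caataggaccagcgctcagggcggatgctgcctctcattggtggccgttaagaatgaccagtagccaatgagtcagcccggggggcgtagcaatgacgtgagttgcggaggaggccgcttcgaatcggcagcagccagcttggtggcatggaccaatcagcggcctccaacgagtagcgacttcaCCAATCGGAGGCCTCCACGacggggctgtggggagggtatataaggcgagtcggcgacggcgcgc

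A second form, ER stress element II (ATTGGNCCACG), was found in 2 further members, against 12 of all windows, or 0.0365%. It is printed below in the same way.
Dnajb11, chr16:22857846-22857868: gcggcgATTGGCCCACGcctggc
Herpud1, chr8:94386371-94386393: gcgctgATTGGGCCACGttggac

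Centres of the ER stress elements lay between 34.5 bases upstream of the start, in Syvn1, and 202.5 bases upstream, in Hsp90b1, which held 2. The carriers were 4 luminal chaperones or cofactors, 3 disulfide isomerases or lectin chaperones, and Syvn1, the ubiquitin ligase of ER-associated degradation. No exact match lay in the windows of the sensors, the stress transcription factors, the Sec61 and TRAP genes or the COPII genes. Of the 104 other pathway genes with a window, Ero1b and Derl3 held the element. The CCAAT box alone, which other factors also bind, was in 22 of 30 member windows and in 37.4% of all windows, and CCACG alone was in 19 of 30 and in 32.8%. The exact letters TGACGTGG, searched for the XBP1 element, were in 0 of 30 member windows and in 0.676% of all windows. Other forms were not searched, and the Hspa5 sequence printed above holds TGACGTGA, which differs in the last base. TGATGNAA, the amino acid response element, was in the windows of Trib3 and Herpud1 and in 3.97% of all windows. CCAAT and CCACG are parts of the ER stress element, so those counts overlap with it. Hyou1, Manf, Atf6, Sec61a1 and Ssr2 had no window in the table. A match is a description of the sequence and does not show that a factor was bound.

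**Figure D1:**
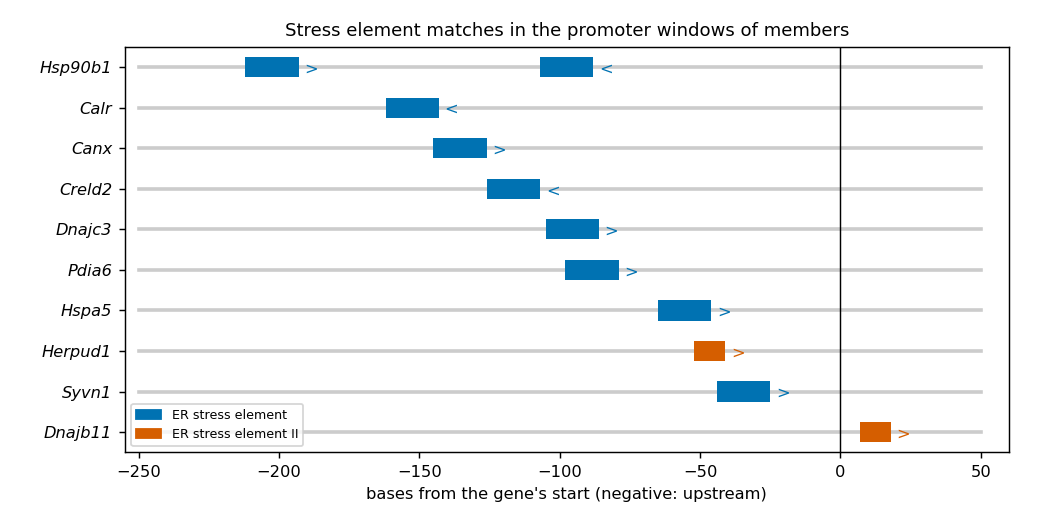
Position of each match, in bases from the gene's start (0), for the 8 members with the ER stress element (blue) and the 2 with ER stress element II (orange); grey lines span the window from 250 bases before to 50 after the start, and arrowheads point along the strand that carries the motif. The ER stress elements lie upstream of the start, between 34.5 and 202.5 bases at their centres.

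Levels are given as TPM (transcript abundance relative to the whole library), which corrects for transcript length, as the mean ± SD over the 2 libraries (n = 2). A gene was called detected at 1 TPM or more in both libraries. All 35 members were detected, against 65.4% of 21474 protein coding genes and 36.4% of all Ensembl genes, and 33 members were also at 5 TPM or more. Their median was 84.4 TPM in replicate 1 and 82.2 TPM in replicate 2, against a median of 6.14 TPM over all protein coding genes and 18.1 TPM over those detected. In all, 33 members lay above the median of coding genes and 20 in the top 10%. Members spanned a 191-fold range and together took 0.616% and 0.595% of TPM. Calr, Hspa5 and Pdia3 supplied 33.5% and 33.1% of that sum. The TPM total also holds spike-ins, and all Ensembl genes took 93.6% of it in replicate 1 and 89.9% in replicate 2. A lower TPM in replicate 2, here and below, can therefore reflect this share alone. In the order of mean levels, 12 of the 34 pairs of neighbours had overlapping ranges, so their order was not resolved by these libraries.

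**Figure D2:**
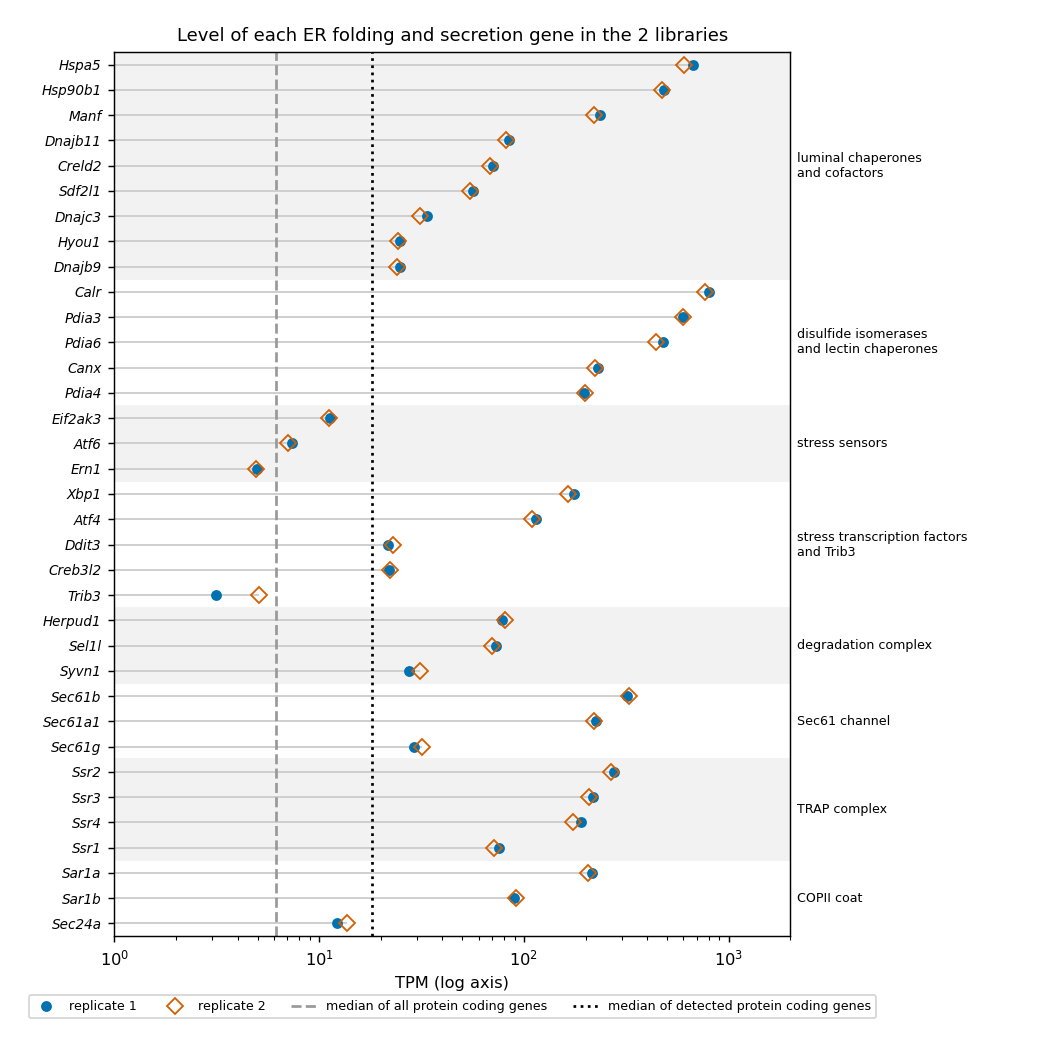
TPM of each member (log axis) in replicate 1 (filled circle) and replicate 2 (open diamond), grouped by role; the dashed and dotted lines mark the medians of all and of detected protein coding genes. Levels run from 4.11 TPM for Trib3 to 782 TPM for Calr, and the symbols of the libraries nearly coincide for most members.

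Among the luminal chaperones, Hspa5 (BiP), the Hsp70-type chaperone that binds unfolded chains, was at 669.95 TPM in replicate 1 and 604 TPM in replicate 2. Hsp90b1 (GRP94), the Hsp90-type chaperone of the ER, was at 480.28 and 469.88 TPM. These were the 2 strongest of the 9 genes of this role. Manf, a small secreted ER stress protein that binds BiP, followed at 228 ± 10.1 TPM.
The cochaperones of BiP were far below it. Dnajb11, a J-domain protein that delivers clients to BiP, was at 83.3 ± 1.61 TPM. Dnajc3 (p58IPK) was at 32.4 ± 1.75 TPM and Dnajb9 (ERdj4) at 24.3 ± 0.60 TPM. BiP messenger RNA exceeded the sum of these 3 by 4.69 times in replicate 1 and 4.41 times in replicate 2. Hyou1 (GRP170), which also acts as a nucleotide exchange factor of BiP, was at 24.5 ± 0.45 TPM, so that Hspa5 was 26.99 and 24.99 times higher. Sdf2l1, a partner of ERdj proteins, was at 55.5 ± 1.23 TPM, and Creld2, an ER stress-induced protein with a proposed isomerase role, at 69.3 ± 1.75 TPM.

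Disulfide isomerases and lectin chaperones were the most abundant role, with a median of 477 TPM in replicate 1 and 442 TPM in replicate 2, and all 5 lay in the top 10% of coding genes. Calr (calreticulin), a soluble lectin chaperone that holds glycoproteins during folding, was the highest member at 799 and 766 TPM. Its membrane-bound relative Canx (calnexin) was at 229.65 and 223 TPM, so Calr was 3.48 and 3.43 times higher. Pdia3 (ERp57), the isomerase that works with both lectins, was at 595 and 599 TPM. Pdia6 was at 477 and 442 TPM and Pdia4 at 197 and 199.7 TPM. Both are further isomerases that form and rearrange disulfide bonds.

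The 3 stress sensors were the lowest role. Eif2ak3, the kinase PERK that slows translation, was at 11.2 ± 0.08 TPM. Atf6, a transcription factor held in the ER membrane until stress, was at 7.20 ± 0.23 TPM, and Ern1, the kinase and nuclease IRE1, at 4.93 ± 0.04 TPM. Their ranges over the libraries did not overlap. Atf6b, the paralog of Atf6 and a gene of the pathway lists, was 9.69 and 10.6 times higher than Atf6.
The stress transcription factors Xbp1, Atf4, Ddit3 and Creb3l2 were higher than the 3 sensors in both libraries, but Trib3 was not. Xbp1, whose messenger is cut by IRE1, was at 175 and 165 TPM. Atf4, translated when PERK is active, was at 115 and 110.03 TPM. Ddit3 (CHOP), a target of ATF4 that can favour cell death, was at 21.7 and 22.9 TPM, and Creb3l2 (BBF2H7), a factor known for Sec23a control in mouse cartilage, at 22.02 and 22.1 TPM. Its paralog Creb3l1 (OASIS), known in mouse bone, was 1.34 and 1.58 times higher than Creb3l2. Trib3, a pseudokinase that is a target of ATF4 and CHOP, was the lowest member by mean, at 3.14 TPM in replicate 1 and 5.07 TPM in replicate 2. In replicate 2 Ern1 was lower, at 4.9 TPM.

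IRE1 acts by removing a short piece of the Xbp1 messenger, which shifts the reading frame. The piece, 26 bases long, was placed in exon 4 of 5 of Xbp1-201 by matches to the IRE1 consensus. It was counted from the end of the upstream match to the end of the downstream match, and its removal lengthens the reading frame. The frame counts 267 codons with it and 371 codons without it. The site is printed with 12 bases of flank on each side and the piece so counted in capitals. The capitals follow the ends of the consensus and do not mark the exact cuts. The flank before them and the capitals both end in CAG, so a piece starting 3 bases earlier leaves the same joined messenger.
Xbp1 splice site, chr11:5524270-5524319 (GRCm38, forward strand): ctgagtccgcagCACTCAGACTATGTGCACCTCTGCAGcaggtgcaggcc
Of the 4 annotated Xbp1 transcripts, 3 held the piece and none held the joined ends without it. The deposited transcript shares therefore carry no measure of how much Xbp1 was spliced by IRE1. Xbp1-201 took 88.97% and 88.84% of the gene's TPM.

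The remaining roles serve entry, export and disposal of proteins. Sec61a1, the pore of the channel, was at 224 and 221 TPM, and Sec61b, a small subunit, at 319.73 and 325 TPM, 1.43 and 1.47 times higher. The pore gene's paralog Sec61a2 was 3.60 and 3.14 times lower.
Sec61g, the other small subunit, was listed at only 28.9 and 31.8 TPM. Its leading transcript matched the transcribed processed pseudogene Gm10177 (chr9:37252922-37253365, GENCODE M21) at 100% identity over 420 bases. Gm10177 was listed at 805 and 811 TPM, with 5146 and 5348 expected counts, against 520 and 555 counts for Sec61g. Reads from the matching stretch cannot be assigned by sequence, so the level of Sec61g is uncertain. Gm10177 was singled out after its values were seen. The sum of the 2 genes was 834 TPM in replicate 1 and 842 TPM in replicate 2. Each TPM was computed over its own gene's length, so the sum is not a level of Sec61g.

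All 4 TRAP genes, which encode the translocon-associated complex that helps signal sequences enter the channel, lay in the top 10% of coding genes. Ssr2 was at 274 and 266 TPM, Ssr3 at 218 and 209 TPM, Ssr4 at 189 and 174 TPM, and Ssr1 at 75.1 and 71.5 TPM. Ssr2 exceeded Ssr1 by 3.65 and 3.72 times. Subunits of 1 complex thus differed in TPM. By expected counts, which do not correct for length, Ssr1 had 17039 and 16919 and Ssr2 had 6538 and 6593. The only annotated transcript of Ssr1 is 9306 bases long, so the TPM ratio depends on the annotated lengths.
In the COPII coat, Sar1a, the GTPase that starts coat assembly, was at 214 and 205 TPM, and its paralog Sar1b at 88.9 and 91.03 TPM, so Sar1a was 2.41 and 2.25 times higher. Sec24a, an adaptor that selects cargo, was at 12.2 and 13.7 TPM. It supplied 8.14% and 8.59% of the TPM of the 4 Sec24 genes, against 41.6% and 39.9% from Sec24d. Sec24a and Sar1b lie head to head on chromosome 11, and their annotated starts are 53 bases apart.
For degradation, Herpud1, a scaffold of the complex, was at 77.7 and 81.0 TPM and Sel1l, the adaptor of the ligase, at 72.6 and 70.2 TPM. Syvn1 (HRD1), the ubiquitin ligase itself, was at 27.4 and 31.2 TPM.

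Some other members share exon sequence with a neighbour, and since the strand setting is not stated, reads on opposite strands cannot be told apart there. Manf overlapped Dcaf1 over 146 exonic bases, Syvn1 overlapped Mrpl49 over 91 and Ddit3 overlapped Mars over 68, all on the opposite strand. Longer overlaps on the opposite strand joined Hsp90b1 to 1810014B01Rik (415 bases) and Ssr2 to the pseudogene Gm10704 (239 bases), the second listed at 3.25 and 1.44 TPM. Sec61a1 overlapped Gm44170 over 549 bases and Eif2ak3 overlapped Gm43292 over 485, and no value of these 2 genes was used here. Hsp90b1 held the annotated miRNA gene Gm25745 on the same strand, over 133 bases, which was listed at 428 and 438 TPM from 358 and 383 counts. The search for near copies also returned 1810014B01Rik, at 4.99 ± 0.55 TPM. It overlaps Hsp90b1 at the same locus, as given above, so it is not a separate copy. Gm10320, a near copy of Sec61b, was listed at 2.45 ± 0.99 TPM, low beside Sec61b. Besides Gm10177, the pseudogene Gm11575 matched Sec61g and was listed at 3.27 and 4.03 TPM, and Gm16412 and Gm14989 were listed at 0.

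The 8 members with the ER stress element had a median of 353 TPM in replicate 1 and 333 TPM in replicate 2, against 76.4 and 76.3 TPM for the 22 members with a window and no exact match. The carriers ranged from 29.3 TPM for Syvn1 to 782 TPM for Calr, and the others from 4.11 TPM for Trib3 to 597 TPM for Pdia3, so the groups overlapped. The 22 include Dnajb11 and Herpud1, which hold ER stress element II. Counted with the 8, the 10 members with either element had a median of 157 and 153 TPM. This split is a description and was not tested.

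Of the members, 27 had 2 or more annotated transcripts. All 27 were led by a protein coding transcript, against 90.6% of 10081 detected coding genes with 2 or more transcripts, and all 27 had the same leader in both libraries, against 91.8%. The median share of the leader was 83.3% of the gene's TPM, against 69.3%. Retained-intron transcripts, which keep an intron and are mostly not translated, took a median of 4.15% and 4.46% per member, against 0.51% and 0.39%. The annotation gives such a transcript to 21 of the 27 members (77.8%) and to 54.2% of these detected coding genes, and the share is 0 in a gene without one. Among genes that have one, the median was lower for members, at 4.64% and 6.73%, against 8.94% and 8.86%.
In 5 members the leader took under 60% in at least 1 library. Sel1l-201 took 36.7% and 37.9%, beside Sel1l-202, a processed transcript of 509 bases, with 26.2% and 22.65%. By expected counts, which do not correct for length, Sel1l-201 took 70.5% and 70.6%, and Sel1l-202 3.33% and 2.79%. Ssr4-208 took 38.5% and 38.9%, and retained-intron transcripts of Ssr4 took 41.1% and 37.4%. Syvn1-204 took 49.1% and 42.3%, with most of the rest on other coding transcripts. Ern1-201 took 52.6% and 51.9% of TPM but 90.4% and 87.3% of expected counts, and coding transcripts made up nearly all of the gene. Sec24a-204 took 62.2% and 57.5%, beside the retained-intron transcript Sec24a-206 with 30.7% and 34.6%.
Abundant folding genes also had transcripts of other annotated types. Retained-intron transcripts of Calr took 29.25% of its TPM in replicate 1 and 25.5% in replicate 2, but 14.1% and 11.9% of its counts. Manf-205 took 35.1% and 37.6%. Pdia3-203, a transcript annotated for nonsense mediated decay, took 25.6% and 28.2% of TPM and 7.46% and 8.42% of counts. Short transcripts thus took a larger share of TPM than of counts.

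**Figure D3:**
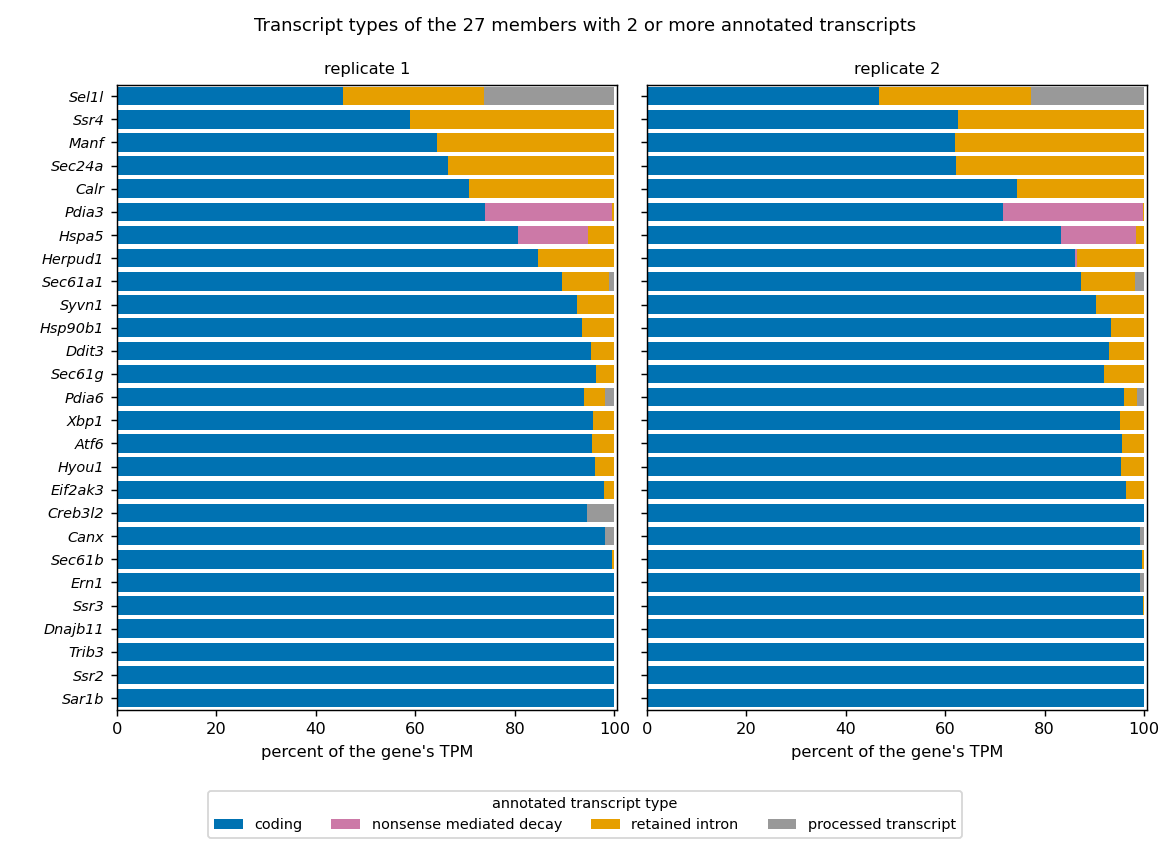
Share of each gene's TPM by annotated transcript type in replicate 1 (left) and replicate 2 (right), as stacked bars in percent, for the 27 members with 2 or more annotated transcripts, ordered by coding share. The coding share is lowest for Sel1l, at 45.4% and 46.7%, and Ssr4, Manf and Sec24a are next in both libraries, in an order that differs between them.

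Beyond the members, 127 further genes of the same pathways were examined in 5 lists, and 123 were detected (96.9%), with a median of 62.9 TPM. All 28 genes of translocation, signal peptide removal and glycan transfer were detected, with a median of 112 TPM. Spcs1, a signal peptidase subunit, was the highest of these at 360.5 ± 6.44 TPM, before Dad1 and Ostc, both of the oligosaccharyltransferase, at 317 ± 8.39 and 316 ± 19.0 TPM, and Tram2 was the lowest at 8.47 ± 0.27 TPM.
Of 27 other COPII and early export genes 26 were detected, and the median was 95.2 TPM. They were led by Tmed2, a cargo receptor, at 444 ± 7.98 TPM, by Kdelr2, which returns escaped ER proteins, at 329 ± 4.82 TPM, and by the coat protein Sec13 at 228 ± 11.6 TPM, and Sec31b was the lowest at 0.39 ± 0.08 TPM.
Among 25 other folding enzymes 24 were detected, at a median of 74.8 TPM. P4hb, a disulfide isomerase that is also a subunit of the collagen prolyl hydroxylase, was at 674 ± 11.3 TPM, Ppib, a prolyl isomerase that acts on collagen, at 503 ± 23.8 TPM, and Calu, a calcium-binding protein, at 366 ± 9.47 TPM, while Cdnf, the paralog of Manf, was at 0.14 ± 0.02 TPM.
The 20 other degradation genes were all detected, and their median was 36.8 TPM. Vcp, the ATPase that pulls proteins out of the membrane, was at 386 ± 3.44 TPM, Selenos at 104 ± 4.52 TPM and the ligase Rnf5 at 93.6 ± 0.08 TPM, and Derl3 was the lowest at 1.27 ± 0.16 TPM.
The 27 other stress response genes had the lowest median, 10.7 TPM, and 25 were detected. Mbtps1, the protease that first cleaves ATF6, was at 87.6 ± 0.55 TPM, Atf6b at 72.9 ± 2.21 TPM and Eif2s1, the factor that PERK phosphorylates, at 69.6 ± 2.37 TPM. Ern2, the epithelial paralog of Ern1, was at 0.03 TPM in replicate 1 and listed at 0 in replicate 2.

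**Figure D4:**
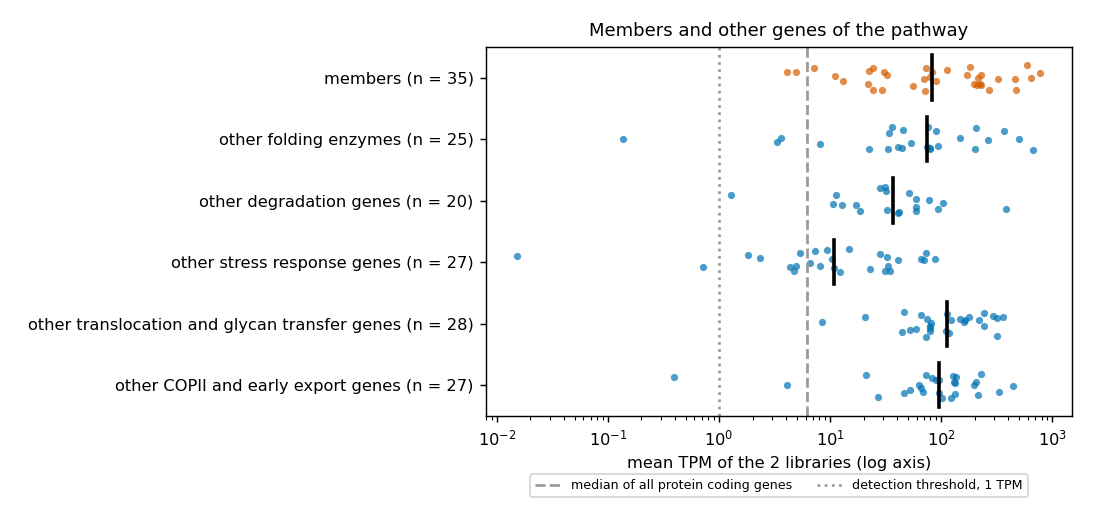
Mean TPM of the 2 libraries (log axis) for the 35 members (orange) and for the genes of the 5 other lists (blue), 1 point a gene, with black bars at the medians; the lines mark 1 TPM and the median of all protein coding genes. The stress response list has the lowest median, at 10.7 TPM, and translocation and glycan transfer the highest of the 5 lists, at 112 TPM.

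The total of expected counts was 37128010 (replicate 1) and 38543623 (replicate 2). Lists of marker genes bore on the tissue label. All 7 cranial mesenchyme markers, all 7 of cartilage, all 6 of bone, all 5 of skeletal muscle and all 4 of epithelium were detected, while 0 of 3 forebrain, 1 of 5 salivary gland, 1 of 4 pancreas and liver and 1 of 4 plasma cell markers were. Mast cell and red blood cell markers were detected, 3 of 3 each. In such bulk samples, fewer cells of a type and less RNA per cell cannot be told apart.

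The libraries were compared as the ratio of replicate 2 over replicate 1 after TMM scaling, with an exact 95% interval for counting error only. Members had a median log2 ratio of -0.03, within a range of -0.11 to 0.69, beside 0.00 over 18318 genes compared. Past 1.5-fold was 1 member, Trib3, higher in replicate 2, against 9.08% of genes compared in either direction (4.78% higher and 4.31% lower). Trib3 had 251 expected counts in replicate 2 and 149 in replicate 1, a log2 ratio of 0.69 with an interval of 0.39 to 1.00. Most members are deeply counted, and 31 had 1000 or more counts in both libraries. Among 7628 genes of that depth 0.485% were past 1.5-fold, and 0 of the 31 members were.
Smaller differences had a common sign within some roles. In all, 24 of 35 members were lower in replicate 2, or 68.6%, beside 49.8% of genes compared and 53.9% of those with 1000 or more counts in both libraries. Of the other pathway genes compared, 77 of 125 were lower (61.6%), from 50% of other stress response genes to 75% of other folding enzymes. The lean to lower values was thus not particular to the members. All 9 luminal chaperones and cofactors were lower, by log2 ratios of -0.11 for Manf and Hspa5 to -0.03 for Dnajb11, and so were all 4 TRAP genes, from -0.09 for Ssr4 to -0.05 for Ssr2. Scaling to the total count put Dnajb11 at 0.00036, just on the other side, and kept the other 8 chaperone genes and the 4 TRAP genes lower. This scaling raised the median log2 ratio of all genes by 0.03. Some lower members of other roles lay nearer 0 than that, so the count of 24 depends on the scaling. Under TMM scaling, the other roles all had members on both sides of 0. The counting intervals of Hyou1, Dnajb9, Dnajb11, Sdf2l1, Creld2 and Ssr2 included a log2 ratio of 0. Counting intervals of 17 members left out a ratio of 1, as did those of 35.9% of genes compared, so such intervals are narrower than the spread between pools. With 1 library on each side, no test was made. Of the pathway genes, Clgn, a testis-enriched relative of calnexin, was past 1.5-fold, at 396 counts in replicate 2 and 208 in replicate 1, a log2 ratio of 0.86 with an interval of 0.62 to 1.12.
Markers of cell types moved between the same libraries. The 7 cartilage markers summed to 781 TPM in replicate 2 and 476 TPM in replicate 1, all 7 higher in replicate 2, and the 5 muscle markers to 1585 and 2124 TPM, all 5 lower. Bone markers summed to 4193 and 4136 TPM, most of it Col1a1, and went both ways, 4 higher and 2 lower, with Bglap at 14.5 TPM in replicate 2 and 28.6 TPM in replicate 1 (log2 ratio -0.96). The 3 mast cell markers summed to 549 and 684 TPM and the 3 red blood cell markers to 13724 and 18128 TPM. Their part in the ratios of Trib3, Clgn and the chaperones was not tested.

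**Figure D5:**
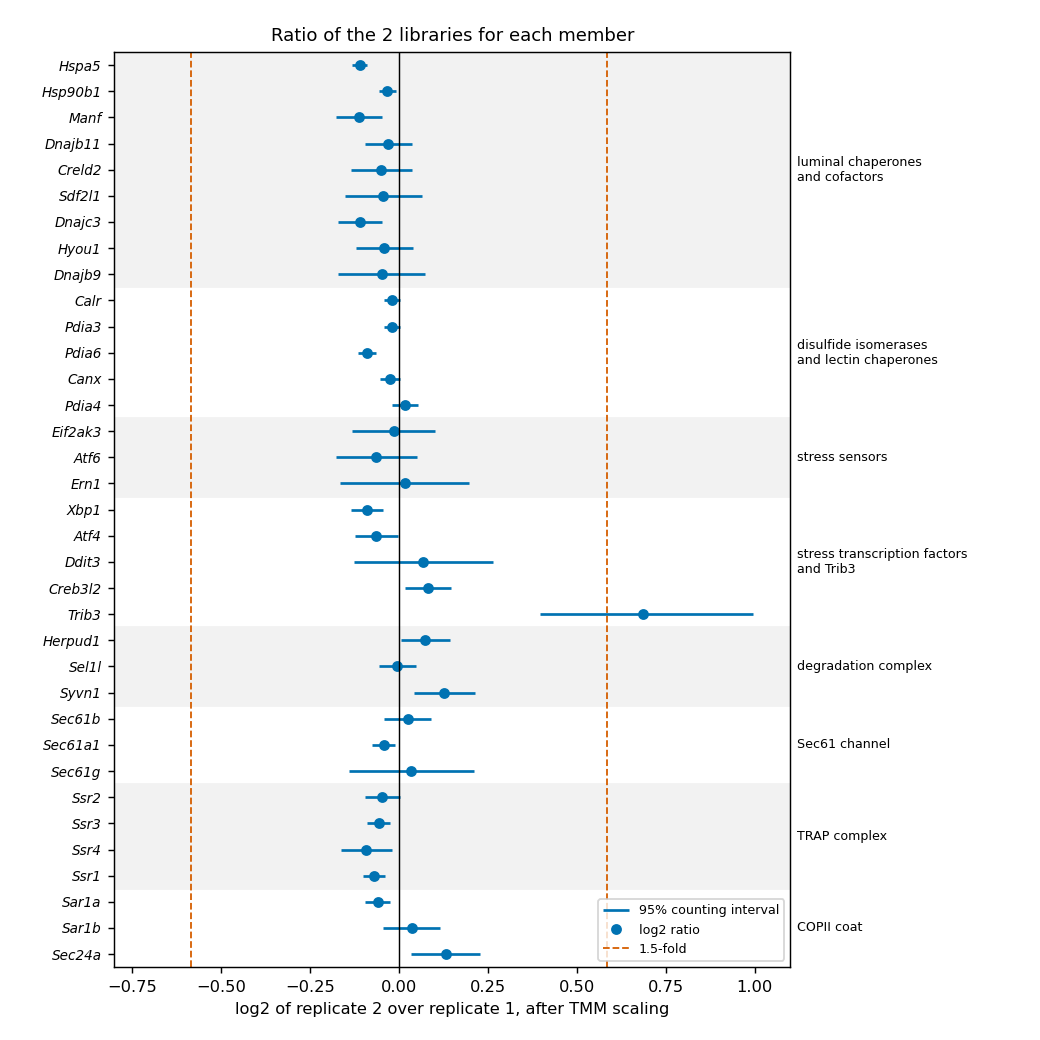
Log2 ratio of replicate 2 over replicate 1 for each member after TMM scaling (points) with 95% counting intervals (lines), grouped by role; dashed lines mark 1.5-fold in either direction. Trib3, at 0.69, is the only member past a dashed line, and all 9 luminal chaperones and all 4 TRAP genes lie left of 0 under this scaling (Dnajb11 not under the total count).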

How the data were processed

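The labels describe 2 total RNA-seq libraries of 1 group, from 10 ng of RNA longer than 200 nucleotides each, with spike-ins. Both libraries carry the same donor entry and are given as biological replicates. Per the text deposited with the samples, reads were aligned to the mouse transcriptome (mm10, annotation M4) and each library was quantified separately. No source used here names the aligner, the counter, a version or the strand setting. Per the file headers, the authors deposited an expected count and a TPM for each gene and transcript, with no scaling between libraries. The percent of a gene's TPM on each transcript was deposited by the authors too, as were posterior means. Credibility bounds of TPM, recorded here as a score, were deposited by the authors and were not used for any call.

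TPM was used as deposited, so spike-ins (2.91% and 4.59% of counts) lower the TPM of genes. Their share of counts is not the size of that effect, since all Ensembl genes took 93.6% and 89.9% of TPM. A read on 1 kb made 0.0406 and 0.0389 TPM. Symbols, transcript types and overlaps came from GENCODE M21 (GRCm38), which held 42462 of 43346 identifiers. All 35 members matched, 5 at the same identifier version. Promoters came from RefSeq.

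Ratios used expected counts rounded to whole numbers, where both libraries had at least 10. TMM factors of 0.989 and 1.01 came from edgeR 4.0.16 in R 4.3.3, with a prior count of 2. Intervals are exact binomial (Clopper-Pearson) at 95% and cover counting error only. The ratio and motif steps were tested on simulated data. DESeq2 1.42.0 gave other size factors. Near copies were found with blastn 2.17.0, at 95% identity or more over at least 200 bases. Tables and figures were made in Python 3.11.15 (scipy 1.17.1, pandas 2.3.3, matplotlib 3.10.9).

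With 1 group no test between conditions was possible, and no p-value is given. Members and lists were chosen with earlier results of these data known. Named were all members, the 3 highest and the lowest gene of each pathway list and any past 1.5-fold, members with a leading transcript under 60%, and Xbp1. Marker lists are given by counts and sums, and of their genes only Col1a1 and Bglap are named. Other markers were past 1.5-fold too, 6 of 7 of cartilage among them. Motifs other than the ER stress element, shares of expected counts, the sum with Gm10177 and the subsets of deeply counted genes and of genes with a retained-intron transcript were chosen after seeing the data.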

Additional observations from a re-analysis of the deposited data

How the results depend on the processing

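No paired analysis was possible because the labels give 1 group. All 35 members were detected under posterior mean TPM, TPM over mouse genes alone and either library alone. The median level of the members was 83.3 TPM and became 90.8 TPM over mouse genes alone, which removes spike-ins from the total. Scaling to spike-in counts moved the median log2 ratio of all genes by -0.65, to a median of -0.69 for members, with 29 members past 1.5-fold beside 65.6% of all genes compared. Trib3, at 0.04, was then not past it. DESeq2 size factors, the total count and no filter on low counts each left 1 member past 1.5-fold, and 0 were past it among members with 1000 or more counts in both libraries. Allowing 1 mismatch in the ER stress element gave 14 of 30 members, or 46.7%, in place of 8, against 1.504% of all windows, and counting ER stress element II gave 10. Using posterior mean shares, 27 members again had the same leader in both libraries. Shares of expected counts moved the leading transcript's share by more than the replicate SD in 20 members, and all 35 leaders stayed coding. Each pathway list kept its count within 1.5 times at 5 TPM, the lowest being 19 of 27 stress response genes. Limited to genes with a retained-intron transcript, the median share of such transcripts, members minus detected coding genes, turned to -3.21 percentage points, against 3.85 over all genes; only the genes entering differ. Depth limits Trib3 most, at 149 counts in replicate 1. Sec61g alone was at 30.4 TPM, and the summed TPM of Sec61g and Gm10177 was 838, which is not a level of Sec61g because the lengths used differ. With 2 libraries, the SD has little precision.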
